A study of Mus musculus with 16 samples.

Results

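The genes described here are the nuclear-encoded subunits of oxidative phosphorylation in the mouse ileum. They were chosen by name: every row of the gene count table whose mouse symbol begins with Ndufa, Ndufb, Ndufc, Ndufs or Ndufv and a digit, is Sdha, Sdhb, Sdhc or Sdhd, or begins with Uqcr, with Cox and a digit from 4 to 8, or with Atp5. This gave 85 of 21965 rows, of which 37 fell to complex I, 4 to complex II, 8 to complex III, 18 to complex IV and 18 to complex V (the ATP synthase). Complexes were assigned by symbol, so Ndufa4, which is now usually counted with complex IV, Ndufa4l2, its close relative, and Cox7a2l, a factor of supercomplex assembly, stayed under their names, and Atp5s, known as coupling factor B, is listed with complex V although it is not a core part of the enzyme. The rule leaves out Ndufab1 and Cyc1, subunits with other names, and the subunits encoded in the mitochondrial DNA.

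Oxidative phosphorylation takes place in the inner mitochondrial membrane. Complexes I and II pass electrons from NADH and succinate to ubiquinone, complex III passes them on to cytochrome c and complex IV to oxygen, and the proton gradient built up by complexes I, III and IV drives ATP synthesis by complex V. In the small intestine this pathway supplies much of the ATP that absorptive enterocytes spend on nutrient and ion transport.

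The libraries were poly(A) RNA-seq of whole terminal ileum, a segment of about 1.5 cm, from male C57BL/6 littermates that were 8 to 10 weeks old at the start and stayed for 6 weeks on a liquid diet. Wild-type (WT) mice were compared with fat-1 mice, labelled Fat1+/-, which carry in all tissues a heterozygous Caenorhabditis elegans transgene for an n3 fatty acid desaturase, and ethanol (EtOH), raised stepwise to 6% (v/v) for the last 3 weeks, was compared with isocaloric pair feeding (PF) on maltose dextrin. The WT groups held 4 PF and 3 EtOH libraries and the fat-1 groups 4 PF and 5 EtOH libraries, 1 mouse each, with 8422645 to 11438539 counts. The transcript of the transgene itself was not analysed here. Whole tissue holds muscle and immune cells beside the epithelium, so fewer cells of a type and less RNA per cell cannot be told apart.

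The libraries differed in markers of gut region, and this ran partly along the groups. Levels are given as CPM, counts scaled to library size times a TMM factor estimated from the genes tested. This factor was 0.899 to 1.01 in WT PF, 1.02 to 1.055 in WT EtOH, 0.846 to 0.938 in fat-1 PF and 1.035 to 1.251 in fat-1 EtOH. The summed level of 11 genes of the proximal small intestine was 10960 to 32630 CPM in WT PF and 6366 to 8045 CPM in WT EtOH. In fat-1 mice it was 22790 to 77310 CPM with PF and 881 to 9593 CPM with EtOH. Gata4, a transcription factor of the jejunum, lay between 25.6 and 156 CPM in the 8 PF libraries and between 0 and 1.11 CPM in the 8 EtOH libraries, without overlap, so diet and position along the gut cannot be told apart by group. Among the PF libraries, fat-1 PF 2 and 4 held almost no Slc10a2, the ileal bile acid transporter, at 7.58 and 3.56 CPM against 473 to 1272 CPM in the other 6. WT EtOH 2 and fat-1 EtOH 3 and 4 had Car1, a carbonic anhydrase of the large intestine, at 4041, 11160 and 12210 CPM, against 0 to 79.1 CPM elsewhere. The members' counts and medians, and some values of single members, are therefore also given without some or all of these 5 libraries, a choice made after the values had been seen.

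Of the 85 rows, 78 had enough counts to be tested by edgeR's quasi-likelihood test, along with 13733 other genes. Together the members took up 1.72% ± 0.136 of all counts in WT PF (SD, n = 4) and 1.55% ± 0.0834 in WT EtOH (SD, n = 3). In fat-1 mice they took up 2.24% ± 0.302 with PF (SD, n = 4) and 1.72% ± 0.28 with EtOH (SD, n = 5). The highest shares, 2.5% each, came from fat-1 PF 2 and 4, and in fat-1 EtOH the share was 1.89% and 2.13% in libraries 3 and 4 against 1.5% to 1.54% in the other 3. These shares use no TMM factor. On this scale the fat-1 groups overlapped, since fat-1 PF 1 and 3 had 1.99% and 1.96%.

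The 7 rows not tested were nearly all tissue-restricted forms. Cox7b2 and Cox8c, known from testis, and a second row named Atp5o had no count in any of the 16 libraries, so that the limit set by a count of 0 is 3 counts a library. Cox6a2 and Cox8b, forms of heart and skeletal muscle, reached at most 6 and 12 counts, Cox4i2, the form known from lung, at most 16, and Ndufa4l2, known for its induction by hypoxia, at most 10. Their broadly expressed partners were far higher in the same libraries, with Cox4i1 at 464 to 1026 CPM and Cox6a1 at 248 to 711 CPM.

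Within complexes the transcripts were unequal. On a scale of CPM per kb of the shortest principal transcript, the WT PF mean of the tested members of complex V ran from 6.13 for Atp5s and 15.4 for Atp5l, a small membrane subunit, to 1183 for Atp5b, the catalytic beta subunit. In complex I the tested members ran from 8.79 for Ndufb4 to 571 for Ndufa4, and in complex II from 78.8 for Sdhc to 334 for Sdhd, both membrane anchors. In complex III the lowest was Uqcrfs1, the Rieske iron-sulfur protein, at 216, and the highest Uqcrh, the hinge protein, at 683. In complex IV the lowest tested member, Cox6b2, stood at 17.7 and the highest, Cox4i1, at 862. The level of Ndufb4 is uncertain, since 17.2% of its windows of 75 bases, the read length, also occur in other genes, and so is that of Atp5l, which shares such windows with 21 other genes.

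**Figure D1:**
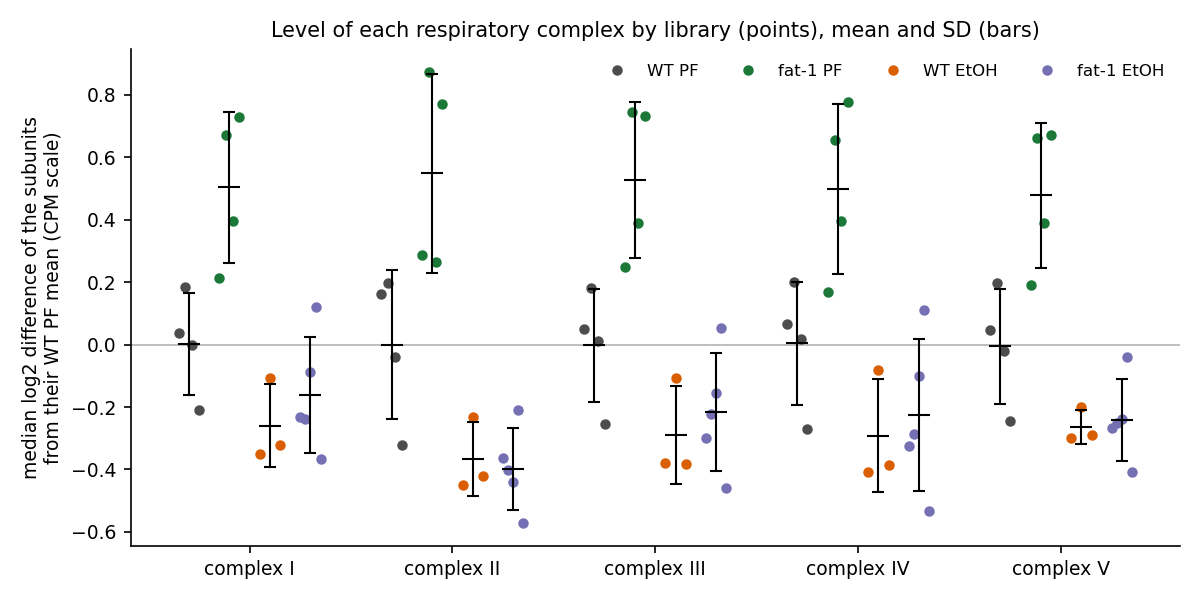
Level of each complex in each library, as the median over its tested subunits of the log2 difference from the subunit's WT PF mean, on the log2(CPM + 0.5) scale. Points are libraries and bars are the mean and SD of a group. The fat-1 PF libraries reach 0.87 in complex II, and all EtOH libraries of complexes II and V lie below 0.

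The comparison of fat-1 EtOH with fat-1 PF asked what ethanol does where n3 fatty acids are raised. All 78 tested members had a lower mean in fat-1 EtOH, and 73 fell at an adjusted p of 0.05 or less, with none higher. In this comparison 18.8% of all 13811 genes tested were called lower. The median log2 fold change of the members was -0.72, against 0.05 for all genes. In 53 members the fat-1 EtOH libraries all lay below all fat-1 PF libraries, where 13.4% of all genes did so. By complex, 33 of 36 tested members of complex I, 4 of 4 of complex II, 8 of 8 of complex III, 13 of 13 of complex IV and 15 of 17 of complex V fell, with medians of -0.66, -0.998, -0.77, -0.70 and -0.74. Without fat-1 PF 2 and 4 the count was 42 of 79 tested, against 7.95% of all genes, and the median -0.50, and without all 5 libraries that stood apart it was 62 of 78, against 7.59%, and -0.58. Scaling on a list of epithelial genes, which moved the median of all genes to 0.37, left 15 calls, all lower, against 7.01% of all genes, and a median of -0.41. Of the members named below it kept Ndufa4, Ndufb3, Sdhb, Sdhc, Sdhd, Uqcrc1, Cox7a1, Cox7a2, Atp5b, Atp5c1 and Atp5g3, and the calls of the others were lost.

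Marker lists moved with this fall. Of the 11 proximal genes 9 fell, and of the 9 smooth muscle genes 9 rose, where 18.7% of all genes were called higher, with a sum of 1374 to 1830 CPM under PF and 2413 to 4740 CPM under EtOH in fat-1 mice. Of the 9 large intestine genes 5 rose, and of the 12 epithelial genes 3 fell and 2 rose. Without all 5 libraries that stood apart, 9 proximal genes fell, 6 smooth muscle genes and 1 large intestine gene rose, and no epithelial gene was called. Among the 8 PF libraries the 3 with the highest level of the members were fat-1 PF 4, 2 and 3, at 0.73, 0.68 and 0.39 on the log2 scale against the WT PF mean, and the lowest was WT PF 4, at -0.23. The part of gut region and cell makeup in the fall was not tested beyond leaving the libraries out.

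**Figure D2:**
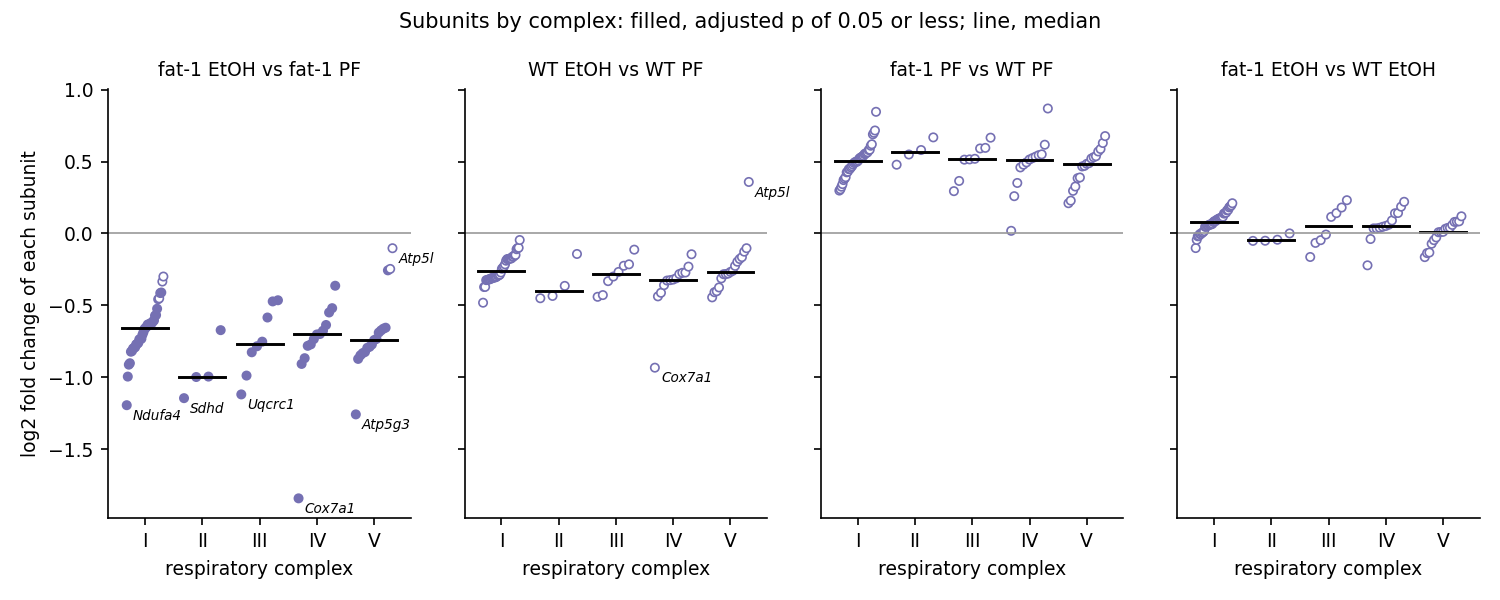
Log2 fold change of each tested subunit by complex in the 4 comparisons. Filled points passed an adjusted p of 0.05, and lines are medians. In fat-1 EtOH against fat-1 PF the points lie between -1.84 and -0.10 and 73 are filled, and in the other comparisons none are.

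Complex I couples the oxidation of NADH to proton transport, and core members of its electron path fell in fat-1 EtOH. Ndufs7 was at 112, 172, 129.8 and 152 CPM in fat-1 PF and at 80.2, 80.5, 89.6, 101 and 73.9 CPM in fat-1 EtOH. The groups did not overlap, and the log2 fold change was -0.73 ± 0.13 (SE; adjusted p = 0.000907), or -0.61 (adjusted p = 0.0161) without the 5 libraries that stood apart. Ndufv2 and Ndufs3, further parts of this path, fell by 0.70 and 0.65 on the log2 scale, and Ndufv1, the subunit that binds NADH, fell by 0.62. Smaller changes were those of Ndufs8, at -0.41 ± 0.09 (adjusted p = 0.00336), and Ndufs1, at -0.41 ± 0.11 (adjusted p = 0.0111). Ndufs1 overlapped between the groups, from 133 to 183 CPM in fat-1 EtOH and from 178 to 247 CPM in fat-1 PF. Without fat-1 PF 2 and 4, Ndufs1, Ndufs8 and Ndufv1 had -0.29, -0.34 and -0.32 and did not pass (adjusted p = 0.131, 0.0595 and 0.169). Without all 5 libraries that stood apart they had -0.40, -0.37 and -0.45 (adjusted p = 0.0565, 0.053 and 0.0668).

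Among the accessory subunits named under complex I, Ndufa4 had the largest change. It was at 328, 437, 347 and 465 CPM in fat-1 PF and at 188, 191, 145, 166 and 171 CPM in fat-1 EtOH. All fat-1 EtOH libraries were lower, with a log2 fold change of -1.19 ± 0.13 (adjusted p = 0.000202). In WT PF it was at 262, 297, 263 and 211 CPM and in WT EtOH at 171, 184, 199 CPM, which also did not overlap. Without the 5 libraries that stood apart, its change in fat-1 mice was -0.87 (adjusted p = 0.0131). Ndufb3 and Ndufc1, small accessory subunits, followed at -0.996 and -0.91. Ndufa7, Ndufv3 and Ndufb4 did not pass the test, at -0.30 ± 0.16, -0.34 ± 0.15 and -0.45 ± 0.20 (adjusted p = 0.16, 0.0828 and 0.091). They passed without WT EtOH 2 and fat-1 EtOH 3 and 4, at -0.54, -0.48 and -0.68 (adjusted p = 0.00829, 0.0138 and 0.0257). Without all 5 libraries they did not, at -0.39, -0.40 and -0.39 (adjusted p = 0.0843, 0.0814 and 0.183).

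Complex II, succinate dehydrogenase, is the member that also belongs to the citric acid cycle, and it had the most negative median of the 5 complexes. Sdhd, a membrane anchor that holds heme, was at 499, 818, 486 and 811 CPM in fat-1 PF and at 291, 277, 305, 353 and 252 CPM in fat-1 EtOH. The groups were apart, with a log2 fold change of -1.15 ± 0.19 (adjusted p = 0.000598). Sdhb, the iron-sulfur subunit, was at 358, 577, 376 and 502 CPM in fat-1 PF and at 232, 235, 221, 238 and 208 CPM in fat-1 EtOH. All fat-1 EtOH libraries were lower, and its log2 fold change was -0.999 ± 0.14 (adjusted p = 0.000312). Sdhc, the other anchor, had -0.996 ± 0.14 (adjusted p = 0.000343) and Sdha, the flavoprotein, -0.67 ± 0.13 (adjusted p = 0.00188). Without fat-1 PF 2 and 4, Sdhb and Sdhd remained called, at -0.69 and -0.74, and Sdha was not, at -0.37 (adjusted p = 0.0532). Without all 5 libraries Sdha had -0.39 (adjusted p = 0.0656).

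In complex III, Uqcrc1, a core protein facing the matrix, had the largest change. It was at 649, 929, 620.2 and 797 CPM in fat-1 PF and at 361, 371, 309, 324 and 357 CPM in fat-1 EtOH. The groups were apart, with a log2 fold change of -1.12 ± 0.14 (adjusted p = 0.000247), or -0.79 (adjusted p = 0.0161) without the 5 libraries that stood apart. Its partner Uqcrc2 fell less, by 0.58 (adjusted p = 0.00103), and Uqcrfs1 by 0.83 (adjusted p = 0.00102). Uqcr10 and Uqcrb, small subunits, had the smallest changes, at -0.47 ± 0.18 (adjusted p = 0.0481) and -0.47 ± 0.14 (adjusted p = 0.0154), and both overlapped between the groups. Neither was called without fat-1 PF 2 and 4, at -0.20 and -0.38 (adjusted p = 0.488 and 0.134), or under upper-quartile scaling, while both were called without all 5 libraries, at -0.47 and -0.56 (adjusted p = 0.0324 and 0.0278). When 1 library was left out, Uqcr10 kept its call only without fat-1 PF 1, fat-1 PF 3 or fat-1 EtOH 4.

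Complex IV held the largest change of all members, in Cox7a1, the form of subunit VIIa known from heart and skeletal muscle and from brown fat. Cox7a1 was at 72.5, 126, 86.9 and 145 CPM in fat-1 PF and at 31.1, 37.3, 21.2, 31.5 and 28.9 CPM in fat-1 EtOH. It was at 62.9, 72.0, 64.6 and 36.2 CPM in WT PF and at 29.3, 39.1 and 24.3 CPM in WT EtOH. The fat-1 groups were apart, while the lowest WT PF library overlapped with WT EtOH. The log2 fold change in fat-1 mice was -1.84 ± 0.24 (adjusted p = 0.000267), and -1.28 (adjusted p = 0.0161) without the 5 libraries that stood apart. Mb, myoglobin, was at most 0.178 CPM and Ucp1, the brown fat protein, at most 0.137 CPM in any library. Of the 3 tested genes of the striated muscle list all had a higher mean in fat-1 EtOH and 1 rose, with a median of 1.06, or none and 0.79 without the 5 libraries, and the list summed to 13.3 to 39.4 CPM in the fat-1 PF libraries, against 31.7 to 81.4 CPM in those of fat-1 EtOH. Ckm, muscle creatine kinase, ran from 8.05 to 31.0 CPM and Acta1, skeletal muscle actin, from 2.78 to 68.2 CPM over all libraries, and the part of muscle in the Cox7a1 values was not tested.

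Cox7a2, the broadly expressed form, also fell, from 274, 360, 337 and 413 CPM in fat-1 PF to 177, 193, 199.8, 216 and 160.2 CPM in fat-1 EtOH, a log2 fold change of -0.87 ± 0.13 (adjusted p = 0.000431), or -0.77 (adjusted p = 0.0161) without the 5 libraries that stood apart. The log2 ratio of Cox7a1 to Cox7a2 counts within a library was -1.72 ± 0.25 in fat-1 PF (SD, n = 4) and -2.67 ± 0.35 in fat-1 EtOH (SD, n = 5), a difference of -0.95, or -0.51 without the 5 libraries that stood apart. It did not overlap between the groups (exact two-sided permutation p = 0.0159, the smallest possible, and 0.106 adjusted over 20 tests). In WT mice the ratio was -2.04 ± 0.26 in PF (SD, n = 4) and -2.60 ± 0.22 in EtOH (SD, n = 3), a difference of -0.56 (exact two-sided permutation p = 0.114, where 0.0571 is the smallest possible). Without the 5 libraries the WT difference was -0.66, without overlap, and so no smaller than the -0.51 of fat-1 mice. Cox6b2, a testis form, was low throughout, at 3.36 to 9.97 CPM, and fell by 0.68 on the log2 scale in fat-1 EtOH (adjusted p = 0.041), with overlap, a call lost without fat-1 PF 2 and 4, at -0.42 (adjusted p = 0.347), and without all 5 libraries, at -0.11 (adjusted p = 0.761). The log2 ratio of Cox6b2 to its broad partner Cox6b1 differed by -0.03 between the fat-1 groups (exact two-sided permutation p = 0.921), but by 0.46 without the 5 libraries. It was -5.65 ± 0.13 in fat-1 PF (SD, n = 4) and -5.05 ± 0.14 in WT PF (SD, n = 4), without overlap, a difference of -0.61 (exact two-sided permutation p = 0.0286, the smallest possible, and 0.143 adjusted over 20 tests).

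Cox4i1, Cox5a and Cox5b, which cover the catalytic core, fell by 0.64, 0.78 and 0.55 on the log2 scale (adjusted p = 0.0112, 0.00178 and 0.0237). Cox4i1 was at 692, 1026, 896 and 1006 CPM in fat-1 PF and at 506, 509.8, 666, 761 and 467 CPM in fat-1 EtOH. The fat-1 EtOH libraries 3 and 4, high in large intestine genes, were the upper pair, and library 4 lay above fat-1 PF 1. Without fat-1 PF 2 and 4 Cox4i1 and Cox5b were not called, at -0.45 and -0.27 (adjusted p = 0.149 and 0.334), while without all 5 libraries they were, at -0.67 and -0.50 (adjusted p = 0.0272 and 0.0395). The call of Cox5b was also lost without either of fat-1 PF 2 and 4 alone, without fat-1 EtOH 5, and under upper-quartile scaling. The same libraries 3 and 4 of fat-1 EtOH were the lowest of the group for Uqcrc1 and Ndufa4. Cox7a2l had the smallest change of complex IV, at -0.36 ± 0.12 (adjusted p = 0.031). It was not called without fat-1 PF 2 and 4, at -0.29 (adjusted p = 0.196), or without all 5 libraries, at -0.42 (adjusted p = 0.0841). It stood at 0.02 when libraries were scaled on mitochondrial import and ribosome genes, a scaling that moved the median of all genes to 0.44.

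In complex V, Atp5g3, which encodes the same mature c subunit of the rotor ring as its paralogs Atp5g1 and Atp5g2, had the largest change. Atp5g3 was at 820.0, 1304, 944 and 1363 CPM in fat-1 PF and at 484, 481, 414, 483 and 453 CPM in fat-1 EtOH. In WT PF it was at 748, 793, 679 and 551 CPM and in WT EtOH at 485, 587 and 456 CPM. The fat-1 groups were apart, with a log2 fold change of -1.26 ± 0.16 (adjusted p = 0.000248), and -0.89 (adjusted p = 0.0141) without the 5 libraries that stood apart. Atp5g1 was at 132, 165, 114 and 169 CPM in fat-1 PF and at 92.7, 78.0, 95.4, 117 and 74.6 CPM in fat-1 EtOH. Library 4 of fat-1 EtOH overlapped with fat-1 PF, and the log2 fold change was -0.66 ± 0.14 (adjusted p = 0.00329), or -0.42 (adjusted p = 0.082) without fat-1 PF 2 and 4 and -0.58 (adjusted p = 0.0271) without all 5 libraries. The level of Atp5g1 is uncertain too, since 7.29% of its read-length windows also occur in other genes, 35 in all. Atp5g2 was at 31.1, 33.0, 32.3 and 34.6 CPM in fat-1 PF and at 24.5, 24.7, 30.0, 31.9 and 25.8 CPM in fat-1 EtOH, also with overlap. Its log2 fold change was -0.26 ± 0.09 (adjusted p = 0.0442), and 35.8% of its read-length windows occur in other genes. It was not called without fat-1 PF 2 and 4, at -0.21 (adjusted p = 0.223), without all 5 libraries, at -0.33 (adjusted p = 0.0712), or in most fits that left out 1 library, and it stood at 0.08 and 0.12 under the scalings that moved the median of all genes to 0.37 and 0.44.

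The log2 ratio of Atp5g3 to Atp5g1 was 2.92 ± 0.19 in fat-1 PF (SD, n = 4) and 2.36 ± 0.27 in fat-1 EtOH (SD, n = 5). The difference was -0.57 (exact two-sided permutation p = 0.0159, 0.106 adjusted over 20 tests). The ratio of Atp5g3 to Atp5g2 differed by -0.96, with the same exact and adjusted p, and that of Atp5g1 to Atp5g2 by -0.40 (exact two-sided permutation p = 0.0476, adjusted 0.163). In WT mice the ratio of Atp5g3 to Atp5g1 was 2.78 ± 0.05 in PF (SD, n = 4) and 2.50 ± 0.11 in EtOH (SD, n = 3), without overlap (exact two-sided permutation p = 0.0571, the smallest possible). Without the 5 libraries the differences in fat-1 mice were -0.31 for Atp5g3 to Atp5g1, -0.55 for Atp5g3 to Atp5g2 and -0.25 for Atp5g1 to Atp5g2. Those in WT mice were then -0.34, -0.38 and -0.04. No ratio passed the adjustment.

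The catalytic head of the ATP synthase had smaller log2 fold changes than Atp5g3. Atp5b, the most abundant member, was at 2577, 3464, 2464 and 2863 CPM in fat-1 PF and at 1808, 1824, 1591, 1678 and 1596 CPM in fat-1 EtOH. The groups were apart, with a log2 fold change of -0.74 ± 0.13 (adjusted p = 0.00102), or -0.52 (adjusted p = 0.0475) without the 5 libraries that stood apart. Atp5a1, the alpha subunit, fell by 0.66 (adjusted p = 0.00252), and it did not pass without fat-1 PF 2 and 4, at -0.46 (adjusted p = 0.0581), or without all 5 libraries, at -0.48 (adjusted p = 0.0676). Atp5c1, the gamma subunit of the stalk, fell by 0.82 (adjusted p = 0.000306). Atp5l and Atp5s did not pass the test, at -0.10 ± 0.19 and -0.25 ± 0.15 (adjusted p = 0.681 and 0.204).

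**Figure D3:**
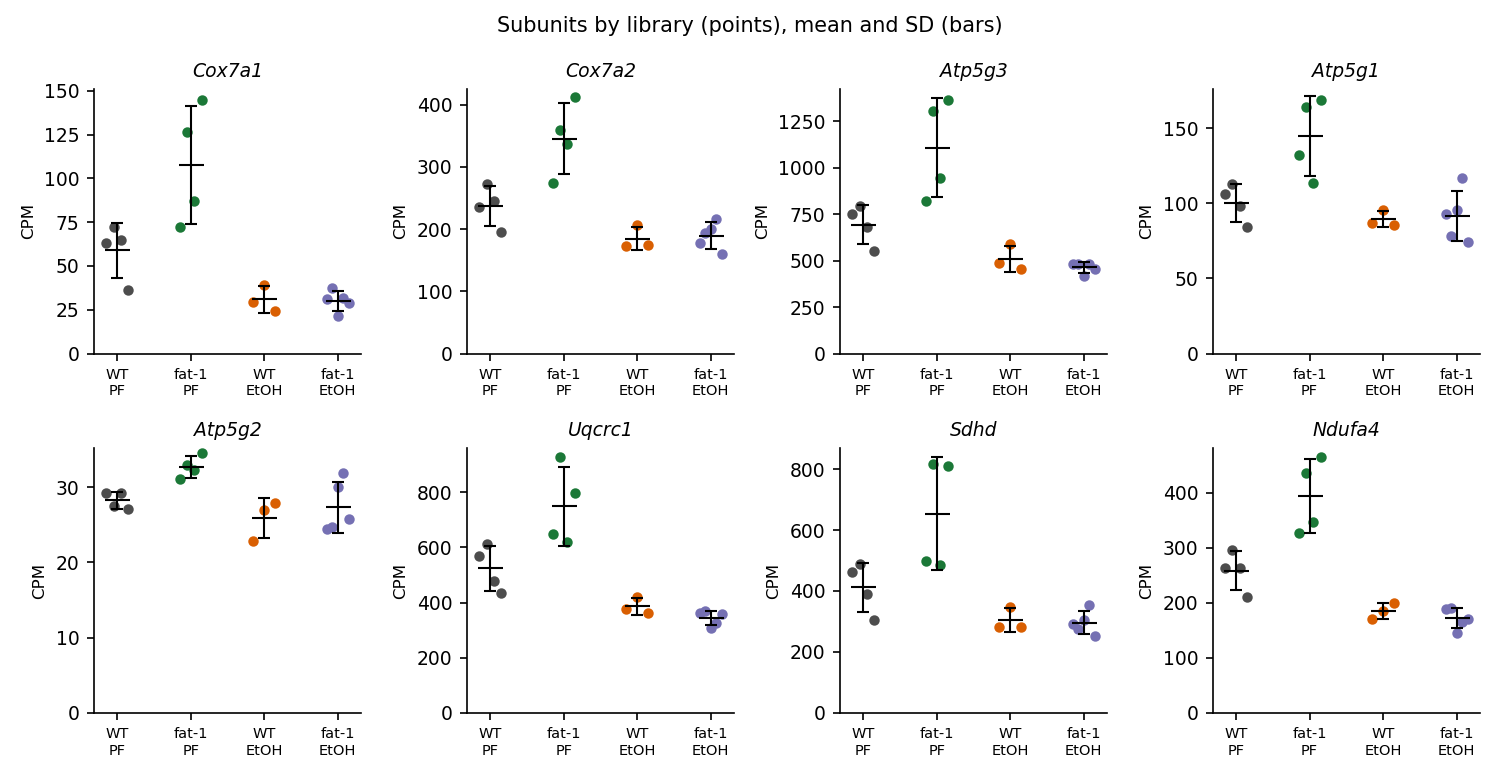
CPM of 8 subunits in each library, with the mean and SD of each group. Cox7a1, Atp5g3, Uqcrc1, Sdhd and Ndufa4 separate fat-1 PF from fat-1 EtOH, while Atp5g1 and Atp5g2 overlap.

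Start-site windows are shown for Uqcrc1, Cox7a1 and Atp5g3 because they had the largest changes in complexes III, IV and V. Windows run from 250 bases before to 50 bases after the RefSeq gene start in GRCm38.p6, 5′ to 3′ on the gene's strand, and capitals mark motif matches. Uqcrc1 lies at chr9:108936398-108936697 on the plus strand, Cox7a1 at chr7:30183921-30184220 on the plus strand and Atp5g3 at chr2:73911277-73911576 on the minus strand.
Uqcrc1: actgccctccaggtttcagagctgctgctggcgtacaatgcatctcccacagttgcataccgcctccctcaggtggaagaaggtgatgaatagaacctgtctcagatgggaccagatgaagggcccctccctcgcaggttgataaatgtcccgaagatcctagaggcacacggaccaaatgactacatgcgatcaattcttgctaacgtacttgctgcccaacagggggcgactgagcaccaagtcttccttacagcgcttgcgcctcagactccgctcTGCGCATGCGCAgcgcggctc
Cox7a1: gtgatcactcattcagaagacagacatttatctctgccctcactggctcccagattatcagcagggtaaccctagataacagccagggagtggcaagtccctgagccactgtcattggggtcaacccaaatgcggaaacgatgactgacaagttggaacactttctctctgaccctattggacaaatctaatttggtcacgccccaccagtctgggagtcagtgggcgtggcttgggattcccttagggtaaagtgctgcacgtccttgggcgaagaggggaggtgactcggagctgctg
Atp5g3: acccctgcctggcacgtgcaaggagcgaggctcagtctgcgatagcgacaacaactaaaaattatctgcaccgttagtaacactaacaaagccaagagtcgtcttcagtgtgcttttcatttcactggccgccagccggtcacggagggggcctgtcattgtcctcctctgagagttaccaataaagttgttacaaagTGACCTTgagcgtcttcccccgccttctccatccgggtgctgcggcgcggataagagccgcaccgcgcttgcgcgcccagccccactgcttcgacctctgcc

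The Uqcrc1 window holds a pair of adjoining TGCGCA cores of nuclear respiratory factor 1 (NRF1) at +30 and +36. The Atp5g3 window holds, on the opposite strand, the AAGGTCA half-site of the estrogen-related receptors (ERR) at -52, and the Cox7a1 window holds none of the 5 motifs searched. Windows were found for 68 of the 84 member symbols, and motifs were searched on both strands. In the 66 windows of tested members, TGCGCA occurred in 18 (27.3%), against 13.8% of the windows of 10853 tested genes. CCGGAAG, the ETS motif bound by GABP, occurred in 15 (22.7%, against 17.1%), AAGATGGC, the YY1 motif, in 9 (13.6%, against 4.38%), AAGGTCA in 8 (12.1%, against 3.22%), and TATAAA in 5 (7.58%, against 7.7%). These matches describe the letters of the windows and were not tied to binding.

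The comparison of WT EtOH with WT PF asked what ethanol does in wild-type mice. Of the 78 members tested, 77 had a lower mean in WT EtOH, with a median log2 fold change of -0.28 against 0.01 for all genes, but none passed an adjusted p of 0.05, where 0.0724% of all genes were called lower. At an unadjusted p under 0.05, 21 members were lower and none higher, against 7.1% of all genes lower. This count depended on single libraries. The number of members at this p, in either direction, was 10, 5, 12 and 35 without WT PF 1, 2, 3 or 4. It was 6, 24 and 5 without WT EtOH 1, 2 or 3, and these fits had 4.03% to 8.44% of all genes lower. Without WT EtOH 2 and fat-1 EtOH 3 and 4 it was 38, against 10.2% of all genes lower. Without all 5 libraries that stood apart it was 47, against 11.6%. In 13 members the WT EtOH libraries all lay below WT PF, where 12.1% of all genes did. DESeq2 called none, against 1.25% of all genes lower, and limma voom with quality weights called 45, all lower, against 10.4%. Fitted on these groups alone, edgeR called 1 member, Ndufa4, against 4.29% of all genes, and without the 5 libraries that stood apart it called Cox7a1 alone, against 1.76%. The medians were -0.26 in complex I, -0.40 in complex II, -0.28 in complex III, -0.32 in complex IV and -0.27 in complex V. Marker lists moved in this comparison too: 3 of 11 proximal genes fell, with a median of -2.95. Of the 9 smooth muscle genes 8 were higher at an unadjusted p under 0.05, where 973 of all 13811 genes were, with none called and a median of 0.77. The smooth muscle sum was 1530 to 2015 CPM under PF and 2648 to 3353 CPM under EtOH, without overlap, and the part of these lists in the members' values was not tested.

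Cox7a1 had the most negative value in WT mice, -0.93 ± 0.28 (adjusted p = 0.187). Ndufa4 had -0.48 ± 0.15, Sdhb -0.45 ± 0.16, Atp5g3 -0.44 ± 0.18, Uqcrc1 -0.44 ± 0.16 and Sdhd -0.43 ± 0.21, none of which passed the adjusted test. Sdhb was at 338, 351, 304 and 246 CPM in WT PF and at 218, 237 and 225 CPM in WT EtOH, without overlap. Atp5l stood apart with 0.36 ± 0.21, from 9.18, 6.56, 9.996 and 7.69 CPM in WT PF to 10.5, 10.5 and 11.2 CPM in WT EtOH, and its sharing of windows with other genes applies here too.

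The comparison of fat-1 PF with WT PF asked what the transgene does without ethanol. All 78 members tested had a higher mean in fat-1 PF, with a median log2 fold change of 0.51 against 0.02 for all genes. No member passed an adjusted p of 0.05, nor did any other gene (0% of all genes). At an unadjusted p under 0.05, 70 members were higher, against 9.25% of all genes, and in 35 members the fat-1 PF libraries all lay above WT PF, against 4.25% of all genes. DESeq2 called 40 members, against 1.25% of all genes higher, and limma voom 10, against 0.181%, all higher. Without fat-1 PF 1 edgeR called 22, against 0.595% of all genes, and without fat-1 PF 3 it called 2, against 0.674%. Without fat-1 PF 2 and 4, the libraries low in Slc10a2, the median was 0.28, 21 members had an unadjusted p under 0.05, against 1.71% of all genes higher, and none were called. Complex medians ran from 0.48 to 0.56, and from 0.24 to 0.30 without these 2 libraries, where complex II, the highest over all libraries, was the lowest.

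The highest values were those of Cox7a1, at 0.87 ± 0.25, and Ndufa5, a complex I accessory subunit, at 0.85 ± 0.20. Ndufa5 was at 55.2, 60.6, 53.7 and 42.3 CPM in WT PF and at 69.2, 109, 75.3 and 127 CPM in fat-1 PF. The groups were apart, and the upper pair of fat-1 PF was again libraries 2 and 4. Ndufa12, another accessory subunit, had 0.70 ± 0.13, and the lowest value was 0.02 ± 0.26 for Cox6b2. The proximal list had a median of 1.80 in this comparison, with 5 of its 11 genes at an unadjusted p under 0.05, and its part in the members' values was not tested.

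Between the EtOH groups the members lay close together. In fat-1 EtOH against WT EtOH the median log2 fold change was 0.05, beside 0.04 for all genes, and the values ran from -0.22 to 0.23. No member passed either an adjusted p of 0.05, where 0.00724% of all genes did, or an unadjusted p under 0.05, where 4.86% of all genes did. DESeq2 and limma voom also called none. Atp5b was the 1 member whose groups did not overlap, lower in fat-1 EtOH, at 1591 to 1824 CPM against 1858 to 1873 CPM in WT EtOH, where 1.02% of all genes lay lower without overlap. Its log2 fold change was -0.13 ± 0.14 (adjusted p = 0.781). Scaling on epithelial genes moved the median of all members to 0.39, beside 0.36 for all genes.

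The interaction of genotype and diet asks whether the ethanol difference itself differed between the genotypes. All 78 members had a more negative difference in fat-1 than in WT mice, with a median of -0.45 on the log2 scale against 0.01 for all genes. No member passed an adjusted p of 0.05, nor did any gene (0%), and 40 members had an unadjusted p under 0.05, against 4.76% of all genes with values below 0. That count was 23 without WT PF 4, 22 without fat-1 PF 2, 20 without fat-1 PF 4, 17 without WT EtOH 2 and 61 without fat-1 EtOH 4, against 2.73% to 4.37% of all genes in these fits. DESeq2 and limma voom called none either. An unadjusted p under 0.05 was reached by 17 of 36 members of complex I, 4 of 4 of complex II, 4 of 8 of complex III, 4 of 13 of complex IV and 11 of 17 of complex V. Without fat-1 PF 2 and 4 the median was -0.23, the complex medians ran from -0.28 to -0.20, and 6 members had an unadjusted p under 0.05, against 1.4% of all genes. The difference in fat-1 mice is thus not shown to differ from that in WT mice.

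**Figure D4:**
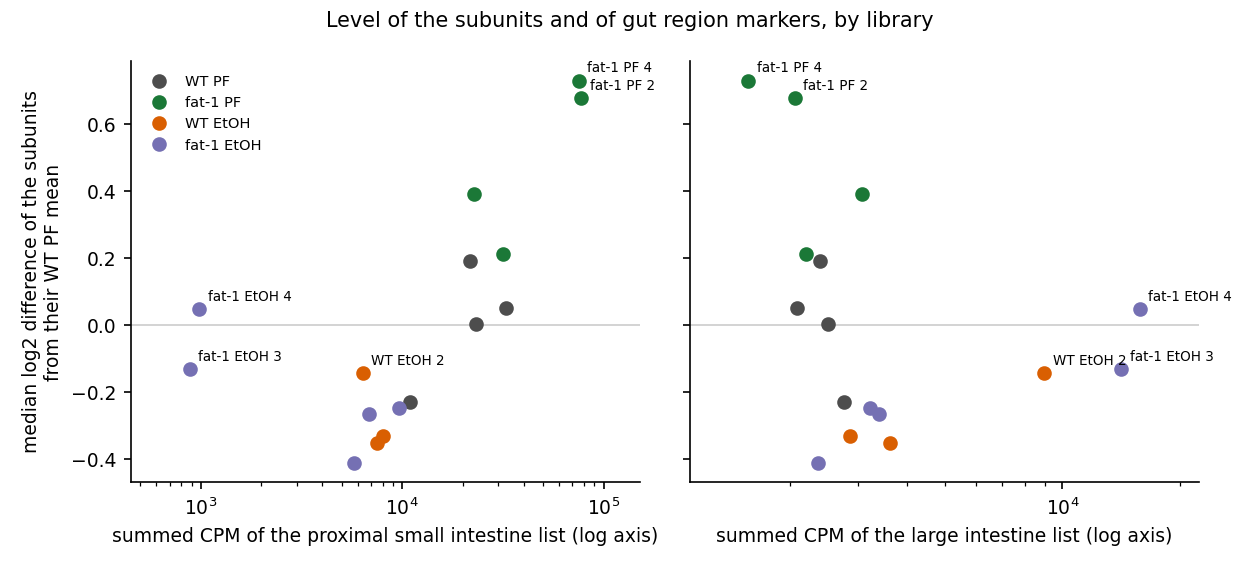
Level of the members in each library, as the median log2 difference from the WT PF mean, against the summed CPM of the proximal small intestine list (left) and the large intestine list (right), both on log axes. In the left panel fat-1 PF 2 and 4 are highest on both axes, and in the right panel fat-1 EtOH 3 and 4 and WT EtOH 2 lie far to the right.

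The PF libraries fell into separate clusters, with fat-1 PF 2 and 4 at proximal sums of 77310 and 75400 CPM and the other 6 at 10960 to 32630 CPM. Over these 6, which share the scaling and the diet but not the genotype, Pearson's r between the members' level and the proximal sum, both as log2, was 0.61 and Spearman's rho 0.26, given as a description. WT PF 4 had both the lowest sum of the 6, 10960 CPM, and the lowest level, -0.23. Of the rest, WT PF 1 had the highest sum, 32630 CPM, at a level of 0.05. The highest level of the 6, 0.39, was that of fat-1 PF 3, at 22790 CPM. The coefficients without WT PF 4 were not computed. The EtOH libraries also formed clusters, and within them fat-1 EtOH 3 and 4, with proximal sums of 881 and 983 CPM, were not the lowest in the members. In the EtOH groups, the highest members' level, 0.05, came from fat-1 EtOH 4 and the lowest, -0.41, from fat-1 EtOH 5. Of all libraries fat-1 EtOH 5 had the highest B cell, T cell, adipocyte and striated muscle sums, at 572, 213, 790 and 81.4 CPM.

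Other mitochondrial genes were read from lists fixed by function. In fat-1 EtOH against fat-1 PF, 11 of 13 tested genes of the citric acid cycle fell and none rose, with a median of -0.71, or 8 and -0.52 without the 5 libraries that stood apart. Mdh2, malate dehydrogenase, changed by -2.22 ± 0.24 (adjusted p = 0.000202), and Cs, citrate synthase, by -0.99 ± 0.20 (adjusted p = 0.00231). Without the 5 libraries they had -1.59 and -0.65 (adjusted p = 0.0136 and 0.0204). Among 12 carriers and partner proteins, 8 fell and 1 rose, and without the 5 libraries 9 fell and none rose. Cyc1, the heme protein of complex III, and Cycs, cytochrome c, had -0.96 ± 0.13 and -0.87 ± 0.11 (adjusted p = 0.000273 and 0.000248). Slc25a5, the adenine nucleotide carrier of most tissues, fell by 0.94, and Slc25a4, the form of heart and muscle, rose by 0.64 (adjusted p = 0.02). Slc25a4 had 0.32 (adjusted p = 0.266) without fat-1 PF 2 and 4 and 0.43 (adjusted p = 0.16) without all 5 libraries, and its call was also lost without either of fat-1 PF 2 and 4 alone.

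Of 27 import genes 17 fell, with a median of -0.46, and of 75 mitochondrial ribosome genes 51 fell, with a median of -0.33. Of 45 assembly factors 17 fell, with a median of -0.26, the largest in Sco2, a copper chaperone of complex IV, at -1.98 ± 0.25 (adjusted p = 0.000254). None of the genes of these 3 lists rose. Without the 5 libraries 12 import genes, 28 ribosome genes and 8 assembly factors fell, with medians of -0.44, -0.38 and -0.31. Glycolysis was mixed, with 9 of 17 genes lower and 2 higher and a median of -0.78. Among 16 regulators of mitochondrial biogenesis 3 fell, the same share as the 18.8% of all genes, Esrrg and Esrra, estrogen-related receptors, at -1.64 ± 0.37 and -1.10 ± 0.17, and Ppargc1a, their coactivator, at -0.90 ± 0.26 (adjusted p = 0.00403, 0.000444 and 0.0156). Without the 5 libraries Esrra remained called, at -0.83 (adjusted p = 0.0173), and Esrrg and Ppargc1a were not, at -1.40 and -0.60 (adjusted p = 0.0702 and 0.231). Ppargc1b, a related coactivator, rose by 0.86 (adjusted p = 0.0473), a call lost in most fits that left out 1 library, and had 0.27 (adjusted p = 0.424) without the 5 libraries. Nrf1, Gabpa and Tfam, regulators of the subunit genes and of mitochondrial DNA, did not pass the test, at -0.07 ± 0.10, -0.21 ± 0.10 and -0.16 ± 0.07. Their signs depended on the scaling. Scaled on epithelial genes they had 0.23, 0.09 and 0.16, and on import and ribosome genes 0.32, 0.18 and 0.22. Only Tfam was then called, under the latter (adjusted p = 0.0404), and both scalings also raised the median of all genes. In WT EtOH against WT PF no gene of these lists passed the test.

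**Figure D5:**
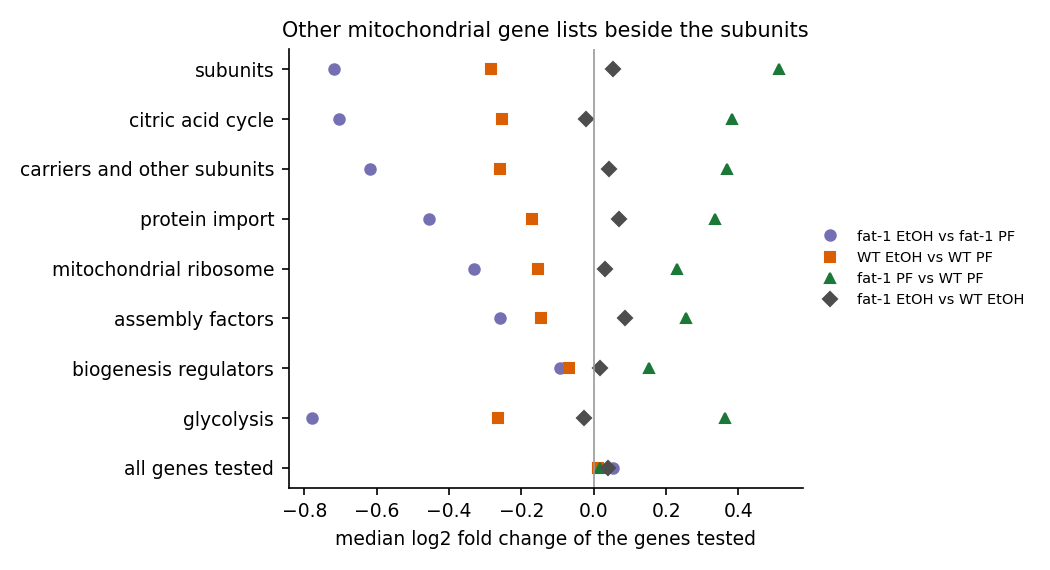
Median log2 fold change of the tested genes of each list in the 4 comparisons. In fat-1 EtOH against fat-1 PF the subunits are at -0.72, the citric acid cycle at -0.71 and biogenesis regulators at -0.09, with all genes tested at 0.05.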

How the data were processed

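Poly(A) RNA was sequenced from 16 ileum libraries. The authors aligned paired reads of 75 bases with TopHat2 to mm10 guided by Ensembl transcripts and deposited raw gene counts from htseq. Whether counting used strand is not given in the sources used here. Symbols came from GENCODE M21, and 26 rows had none. The members and lists were chosen with earlier results of these data known.

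Genes were kept by filterByExpr (13811 of 21965) and tested with edgeR 4.0.16 (TMM, robust quasi-likelihood, 1 mean per group over all libraries). Calls used a Benjamini-Hochberg adjusted p of 0.05 or less over all genes tested. DESeq2 1.42.0, limma 3.58.1 with voom, 4 other scalings, other filters, fits on the compared groups only and fits leaving out libraries were alternatives. Scripts were tested on simulated data. CPM used TMM factors. Ratios of paralogs, pairs with both tested, used log2 of counts + 0.5 and exact permutation tests. Level per kb used the shortest GENCODE principal transcript.

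Named members were the core subunits, tissue isoforms with their partners, the largest called change of each sign per complex and comparison, all members called in a comparison with 5 or fewer calls, members called against the direction of their complex, and the highest and lowest level per complex. Some results under this rule are not reported here. Other members, among them those that did not pass the test, were named after their values were seen. The alternative without all 5 libraries was chosen after seeing the data. No 2 libraries of a group were alike within sampling noise (25 pairs). The p-values measure the spread between mice sampled once each, and counting limits cover counting error only.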

Additional observations from a re-analysis of the deposited data

Results flagged for a closer look

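Among 144 groups of 4 or 5 libraries tested over 48 results, 2 values lay far from the others of their group, where chance flags about 1 in 20. Uqcrb, the ubiquinol-binding subunit of complex III, was at 183 CPM in fat-1 PF 1, while the other 3 fat-1 PF libraries lay between 226 and 230.5 CPM. The highest WT PF value was 179 CPM. Ndufa12, an accessory subunit of complex I, was at 43.2 CPM in fat-1 EtOH 4, a library high in large intestine genes, while the other 4 fat-1 EtOH libraries lay between 33.1 and 36.0 CPM.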

How the results depend on the processing

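In fat-1 EtOH against fat-1 PF, leaving out 1 library at a time gave 66 to 75 calls, all lower, and 66 of the 73 members were called in every one of these 16 fits. Scaling on epithelial genes left 15 calls, and leaving out fat-1 PF 2 and 4 left 42. Scaling on import and ribosome genes gave 50 of 78, all lower, against 6.01% of all genes, and upper-quartile scaling gave 64, all lower, against 12.7%. Leaving out WT EtOH 2 and fat-1 EtOH 3 and 4 gave 75 of 78 and a median of -0.79. The cause of these differences was not tested. The median stayed below 0 under every scaling. Scaling on epithelial genes and on import and ribosome genes turned Atp5g2 to 0.08 and 0.12, Ndufa7 to 0.06 and 0.07, Ndufv3 to 0.01 and 0.04, Atp5s to 0.05 and 0.14 and Atp5l to 0.21 and 0.27, and the latter turned Cox7a2l to 0.02. Upper-quartile scaling turned Atp5l to 0.05, and leaving out fat-1 PF 2 and 4 turned Atp5l to 0.15 and Atp5s to 0.02. The epithelial and the import and ribosome scalings moved the median of all genes to 0.37 and 0.44, and the share of calls that were lower from 50.1% to 20.5% and 11.3%, while upper-quartile scaling gave 31% and 0.20. In fat-1 PF against WT PF, DESeq2 called 40 members and voom 10, and leaving out 1 library gave 0 to 22. In WT EtOH against WT PF, voom called 45, a fit on these groups alone 1, leaving out all 5 libraries 1, and leaving out 1 library 0. In fat-1 EtOH against WT EtOH and for the interaction no alternative called a member. Replicate numbers did not pair libraries (mean r of -0.0225 over 21 same-numbered pairs), and a fit with the replicate number as a block called 67 members in fat-1 EtOH against fat-1 PF and none elsewhere.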
